A study of Mus musculus with 8 samples.

Results

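The 10 genes described here encode enzymes that turn arachidonate into prostaglandin E2 (PGE2) and leukotriene B4, a related lipoxygenase, and a pair of PGE2 receptors. They were taken by symbol from a list given beforehand, and all 10 were found among the 53647 genes of the count table. They were read in 8 polyA RNA libraries of C57BL/6 mouse cells that the labels call leukemia macrophages, sorted after culture. For 4 libraries (E-Mac, MSC-educated) the macrophages were cultured for 12 h together with mesenchymal stromal cells (MSC), a connective-tissue cell type known to nurse blood stem cells. For the other 4 (Mac) they were cultured for 12 h without MSC. The leukemia model, the mice's age, the origin of the MSC and the gate of the sort were not given in the sources used here. Nothing in the labels ties a library to its own animal or culture, so a p-value reflects the scatter among these libraries, which may be technical.

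Arachidonate is a fatty acid held in membrane phospholipids, and cytosolic phospholipase A2 frees it when a cell is stimulated. Cyclooxygenases convert it to an unstable intermediate from which terminal synthases make PGE2 and the other prostanoids, while 5-lipoxygenase and its partner FLAP send it toward the leukotrienes. PGE2 raises cAMP in macrophages through the receptors EP2 and EP4, and PGE2 released by MSC is a known route by which these cells change macrophage cytokine output in mice.

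Pla2g4a and Ptges, the first and last enzymes of PGE2 synthesis, were each about 2-fold higher in E-Mac (2.23-fold and 2.04-fold), whereas the cyclooxygenase genes between them did not pass the test. The receptor gene Ptger2 rose 1.40-fold and Ptger4 fell to 0.560 of its Mac level. Lta4h, which makes leukotriene B4, fell to 0.511 of its Mac level. Of the 10 members 4 rose, 2 fell and 4 did not pass at an adjusted p under 0.05 (edgeR's quasi-likelihood test, Benjamini-Hochberg over the 13412 genes tested). All 10 passed the filter on low counts. Their share of calls lies near the background, since 58.3% of the genes tested were called, 29.5% higher and 28.8% lower in E-Mac. In 6 of the 10 the groups did not overlap, against 53.9% of all genes tested (E-Mac above in 26.7% and below in 27.2%). The median log2 fold change of the members was -0.12, against -0.0030 for all genes tested.

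Total counts ran from 13377046 to 15740846 in E-Mac and from 11646025 to 15556935 in Mac libraries. The 16 macrophage markers were all detected in both groups and summed to 14045 to 17662 CPM (counts per 1000000) in E-Mac and 16574 to 17855 in Mac. The sorted RNA also held transcripts that serve as markers of other cells. The 18 granulocyte markers were led by S100a9 in both groups. They summed to 11821, 19076, 12537 and 16589.6 CPM in E-Mac 1 to 4, against 34305 to 38104 in Mac. An exact two-sided permutation test gave p = 0.0286, the smallest that 4 against 4 libraries allow. Of these genes 12 fell in E-Mac, while Cxcr2 and Mmp9 rose. The 23 stromal markers summed to 87.3, 475, 63.9 and 517 CPM in E-Mac 1 to 4, against 14.3 to 17.4 in Mac (p = 0.0286, same exact test), with Col3a1, Lum, Pdgfra and Twist1 at 0 counts in Mac. Monocyte markers summed to 5326 to 5993 CPM in E-Mac and 8006 to 9032 in Mac, with 4 of 6 genes lower and Ly6c2 higher in E-Mac. Platelet and megakaryocyte markers summed to 104 to 193 CPM in E-Mac and 44.7 to 51.6 in Mac (both sums p = 0.0286, same exact test). The higher platelet sum rests on Pf4, which averaged 127 CPM in E-Mac and 0.536 in Mac. The 3 other tested genes of that list fell, among them Itga2b at 26.9 CPM in E-Mac and 42.8 in Mac. Whether the transcripts of such lists came from other cells or from the sorted macrophages themselves was not tested. The part of any other cells in the values of the members, and of the other genes described below, was not tested either. The 6 eosinophil markers, led by Prg2, summed to 1819 to 2614 CPM in E-Mac and 2083 to 2399 in Mac (p = 0.686, same exact test). E-Mac 2 and 4 thus stood apart from E-Mac 1 and 3 in stromal and granulocyte sums, and the fold changes of the members and of some other genes are also given without them. In bulk RNA, fewer cells of a type and less RNA per cell cannot be told apart.

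The promoters of the 4 members that changed most are shown first, because Pla2g4a and Ptges rose together and Ptger4 and Lta4h fell together. Each line gives the 250 bases before the RefSeq start on build GRCm38.p6, read 5′ to 3′ along the gene. Capitals mark matches to 1 of 10 short motifs searched on both strands. The table of promoters held 8 of the 10 members, and Alox5ap and Alox15 were not matched.
Pla2g4a: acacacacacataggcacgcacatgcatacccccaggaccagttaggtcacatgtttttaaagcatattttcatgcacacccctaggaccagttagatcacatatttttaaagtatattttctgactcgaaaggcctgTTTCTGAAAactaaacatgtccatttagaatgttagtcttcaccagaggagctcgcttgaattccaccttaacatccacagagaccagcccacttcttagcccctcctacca
Ptges: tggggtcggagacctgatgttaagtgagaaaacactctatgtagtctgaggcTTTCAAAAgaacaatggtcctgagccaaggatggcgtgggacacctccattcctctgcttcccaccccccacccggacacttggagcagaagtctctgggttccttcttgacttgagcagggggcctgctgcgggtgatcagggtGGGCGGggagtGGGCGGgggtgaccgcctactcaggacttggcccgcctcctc
Ptger4: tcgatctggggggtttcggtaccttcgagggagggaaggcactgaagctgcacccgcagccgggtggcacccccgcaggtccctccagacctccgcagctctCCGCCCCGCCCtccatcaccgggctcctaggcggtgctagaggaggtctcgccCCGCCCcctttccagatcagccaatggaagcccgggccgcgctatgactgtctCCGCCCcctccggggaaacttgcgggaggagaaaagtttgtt
Lta4h: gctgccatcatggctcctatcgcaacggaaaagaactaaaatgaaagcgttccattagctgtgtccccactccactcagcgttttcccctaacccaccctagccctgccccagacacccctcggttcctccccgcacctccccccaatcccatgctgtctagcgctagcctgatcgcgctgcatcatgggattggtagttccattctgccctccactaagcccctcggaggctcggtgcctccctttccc

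These were the windows at chr1:149961291-149961540 (minus strand) for Pla2g4a, chr2:30903298-30903547 (minus strand) for Ptges, chr15:5244188-5244437 (minus strand) for Ptger4 and chr10:93453146-93453395 (plus strand) for Lta4h. The capitals in Pla2g4a are 2 overlapping matches to the C/EBP letters TTNNGNAA, and Ptges held 1 C/EBP match and 2 copies of the GC box GGGCGG. Ptger4 held 4 GC boxes, all on the other strand, of which a pair share a base, and Lta4h held no match. The RefSeq start of Ptges lies within the longer span that GENCODE gives the gene. Counted over the 300 bases from 250 before to 50 after the start, the C/EBP letters occur in 40.7% and the GC box in 35.7% of 32851 such RefSeq windows, so neither is rare. No match in these 4 windows was found to the other motifs searched, which were the CRE TGACGTCA (1.79% of windows), its shorter part TGACG, the E-box CACGTG, the AP-1 letters TGANTCA (7.81%), the TATA letters TATAAA (13.6%), the PU.1 letters GAGGAAGT (3.20%) and, by name, the ISRE (3.44%) and the NF-kB motif (19.2%). In Ptgs2 the window held TGACG on the other strand at positions 14 to 18 after the start and CACGTG at positions 17 to 22, overlapping by 2 bases. These letters occur in 20.8% and 7.15% of the windows. Before the start the Ptgs2 window also held C/EBP matches at positions -69 to -62 and -25 to -18 and a GC box at -170 to -165. Among the other members, Ptgs1 held a PU.1 match, Ptger2 held C/EBP matches and Alox5 held a GC box. A match describes letters only, and its absence says nothing of a factor.

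Release of arachidonate opens the pathway. Pla2g4a, which encodes cytosolic phospholipase A2 alpha (chromosome 1, 149829618 to 149961290 on mm10, minus strand), had 76.2, 75.2, 68.9 and 81.5 CPM in E-Mac 1 to 4, against 36.6, 31.1, 35.9 and 31.7 CPM in Mac 1 to 4. Every E-Mac library lay above every Mac library. The log2 fold change, E-Mac over Mac, was 1.16 ± 0.08 (standard error, n = 4 and 4, edgeR adjusted p = 7.16e-08), a rise of 2.23-fold. It remained between 1.01 and 1.20 under 18 other ways of scaling, filtering, testing or leaving out libraries, and was 1.11 without E-Mac 2 and 4. Pla2g4a, Ptges, Ptger2, Ptger4 and Lta4h kept call and direction in all 18, and the call of Alox15 did not.

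Cyclooxygenases act next, and neither gene passed the test. Ptgs1, the constitutive cyclooxygenase COX-1 (chromosome 2, 36230426 to 36252272, plus strand), had 44.3, 36.2, 48.2 and 38.0 CPM in E-Mac and 54.4, 43.3, 47.6 and 48.8 CPM in Mac. The groups overlapped, although E-Mac 2 and 4 lay below all Mac libraries. Its fold change on the log2 scale was -0.22 ± 0.10 (adjusted p = 0.0822, 95% interval -0.44 to 0.0016), and it passed without E-Mac 3 (-0.29, adjusted p = 0.0256) but was -0.064 without E-Mac 2 and 4. With libraries scaled by total counts only it also passed (-0.37, adjusted p = 0.00996), a scaling that moves the median of all genes by -0.14. Adjusted p ran from 0.00996 to 0.552 over the alternatives.

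Ptgs2, the inducible cyclooxygenase COX-2 (chromosome 1, 150100031 to 150108227, plus strand), had 37.3, 56.4, 37.9 and 41.9 CPM in E-Mac and 39.8, 98.6, 63.5 and 40.6 CPM in Mac. Mac 2 stood highest, Mac 3 next, and Mac 1 and 4 lay within the range of E-Mac. The coefficient of variation in Mac was 45.6%, the widest of the 10 members in either group, against 20.6% in E-Mac. On the log2 scale the difference was -0.48 ± 0.31 (adjusted p = 0.219), with a 95% interval of -1.18 to 0.23, so a fall of more than 2-fold and a small rise both lie within it. Without Mac 2 it was -0.13 (adjusted p = 0.612), and without E-Mac 2 and 4 -0.67.

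The genes whose profile over the 8 libraries was most like that of Ptgs2 were Nfkbia, the NF-kB inhibitor, Pnrc1 and the transcription factor gene Klf6. Their log2 profiles, centred on each gene's mean, differed from that of Ptgs2 by a root mean square of 0.13, 0.16 and 0.19. Nfkbia had 195, 238, 211 and 209.8 CPM in E-Mac 1 to 4, against 189, 529.5, 278 and 204 CPM in Mac 1 to 4. Like Ptgs2, it was highest in Mac 2 and next highest in Mac 3.

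PGE2 itself is made by Ptges, the inducible microsomal prostaglandin E synthase (chromosome 2, 30889471 to 30929863, minus strand). It had 12.6, 14.1, 15.1 and 11.9 CPM in E-Mac, against 7.21, 6.91, 5.84 and 6.47 CPM in Mac, and the groups lay well apart. The log2 fold change was 1.03 ± 0.13 (n = 4 and 4, adjusted p = 1.74e-05), 0.88 to 1.09 over the alternatives and 1.08 without E-Mac 2 and 4. E-Mac 2 and 4, which held most stromal counts, had 14.1 and 11.9 CPM, and E-Mac 1 and 3 had 12.6 and 15.1. The nearest profiles were those of Havcr2, which encodes the checkpoint receptor TIM-3, the diacylglycerol kinase gene Dgke and the synaptotagmin gene Syt8, with root mean square differences of 0.06, 0.06 and 0.07. Havcr2 averaged 47.9 ± 5.12 CPM in E-Mac and 24.5 ± 1.93 CPM in Mac (SD, n = 4 each).

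**Figure D1:**
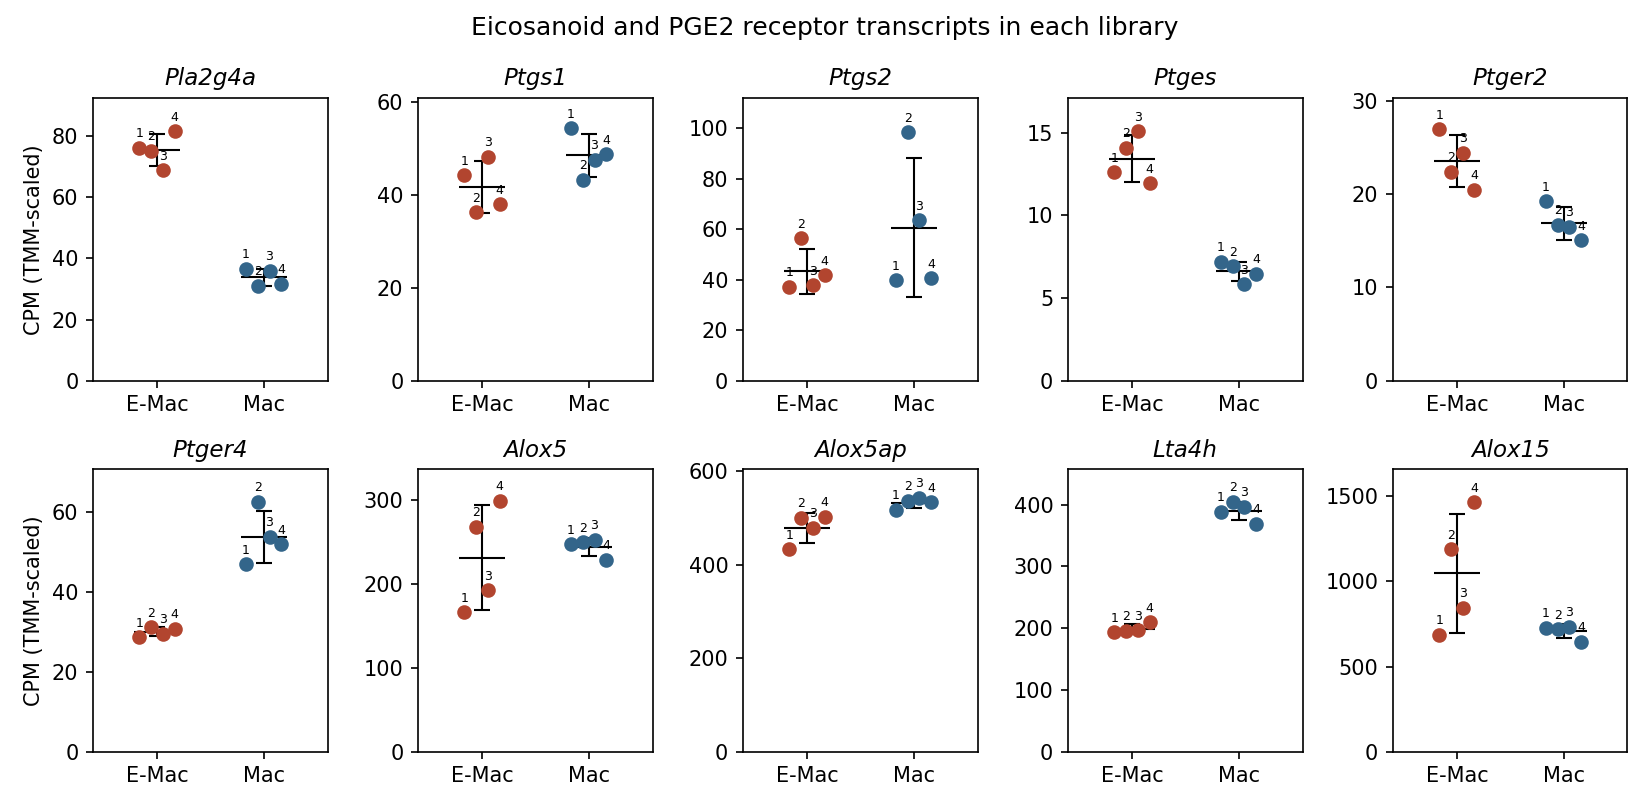
Each panel shows 1 gene, with CPM scaled by TMM factors on a linear axis from 0, the 4 E-Mac libraries on the left and the 4 Mac libraries on the right, numbered by replicate; the horizontal line is the mean and the bar 1 SD. Pla2g4a and Ptges lie higher in every E-Mac library, Ptger4 and Lta4h lower, Ptgs2 is highest in Mac 2 at 98.6 CPM, and Alox5 and Alox15 are highest in E-Mac 2 and 4.

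The PGE2 receptors moved in opposite directions. Ptger2, which encodes EP2 (chromosome 14, 44988195 to 45003820, plus strand), had 27.0, 22.4, 24.4 and 20.5 CPM in E-Mac and 19.3, 16.7, 16.5 and 15.0 CPM in Mac. All 4 E-Mac libraries lay above the highest Mac library, by a narrow margin for E-Mac 4. Its rise was 0.48 ± 0.11 on the log2 scale (adjusted p = 0.00284), 0.34 to 0.61 over the alternatives, the highest of these without E-Mac 2 and 4.

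Ptger4, which encodes EP4 (chromosome 15, 5206661 to 5244187, minus strand), had 28.8, 31.2, 29.6 and 30.8 CPM in E-Mac, against 46.9, 62.6, 53.9 and 51.9 CPM in Mac. The E-Mac libraries lay within 3 CPM of each other and all below Mac. Ptger4 changed by -0.84 ± 0.09 on the log2 scale (adjusted p = 5.03e-06), -0.98 to -0.74 over the alternatives and -0.87 without E-Mac 2 and 4. Most alike in profile were the zinc finger gene Zfp983, Cdadc1 and the actin-severing protein gene Dstn, with root mean square differences of 0.05, 0.08 and 0.08.

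Set per kilobase of exon (RPKM), EP2 and EP4 transcripts stood at a ratio of 1.20, 0.919, 1.06 and 0.851 in E-Mac 1 to 4, against 0.526, 0.342, 0.393 and 0.371 in Mac 1 to 4. The mean ratio was 1.01 ± 0.155 in E-Mac and 0.408 ± 0.0812 in Mac (SD, n = 4 each). That the groups did not overlap follows from the values above. Ptger2 lay above and Ptger4 below all Mac libraries in every E-Mac library. This pair was set against each other after its values had been seen, so no test is given. Of the other PGE2 receptor genes, Ptger1, which encodes the calcium-coupled EP1, fell to 4.74 ± 0.804 CPM in E-Mac, against 8.13 ± 1.12 CPM in Mac (-0.78 ± 0.17, adjusted p = 0.00173). Ptger3, which encodes EP3, averaged 0.324 CPM in E-Mac and 0.873 CPM in Mac and was too low to test.

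**Figure D2:**
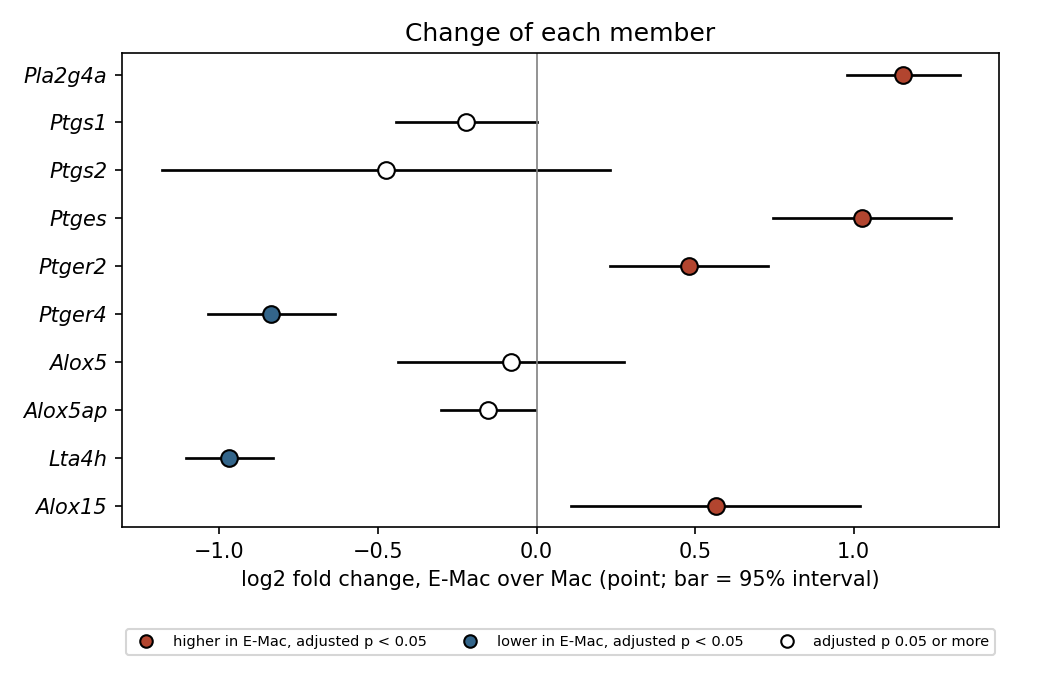
Points give the log2 fold change of each gene (E-Mac over Mac) and bars its 95% interval from the edgeR fit of 4 against 4 libraries; filled points passed an adjusted p of 0.05. Pla2g4a, Ptges, Ptger2 and Alox15 lie to the right of 0 and Ptger4 and Lta4h to the left, while the bar of Ptgs2 runs from -1.18 to 0.23.

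On the leukotriene side, the enzyme genes differed in how they moved. Alox5, which encodes 5-lipoxygenase (chromosome 6, 116410077 to 116461178, minus strand), had 166, 268, 192 and 299 CPM in E-Mac and 247, 249.8, 252 and 229 CPM in Mac. E-Mac 1 and 3 lay below all Mac libraries and E-Mac 2 and 4 above them. A log2 fold change of -0.080 ± 0.16 (adjusted p = 0.695, 95% interval -0.44 to 0.28) therefore averages libraries on either side of Mac. It turned to 0.056 without E-Mac 1 and to 0.0052 without E-Mac 3, with no call (adjusted p = 0.721 and 0.982), and passed at -0.44 without E-Mac 2 and 4 (adjusted p = 9.98e-07, the lowest of a range of 9.98e-07 to 0.982 over the alternatives).

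E-Mac 2 and 4 also held more stromal and granulocyte marker counts than E-Mac 1 and 3, and mast cell and basophil markers summed to 138, 256, 169.5 and 245 CPM in E-Mac 1 to 4, against 305 to 341 CPM in Mac. The part of any such cells in the Alox5 values was not tested. The profiles nearest to Alox5 were those of the phospholipase gene Pnpla7, the protein kinase C gene Prkcb and Rin3, with root mean square differences of 0.04, 0.06 and 0.06. Prkcb had 126, 187, 127 and 211 CPM in E-Mac 1 to 4, against 169 to 183 CPM in Mac, the same split between E-Mac libraries.

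Alox5ap encodes FLAP, which presents arachidonate to 5-lipoxygenase (chromosome 5, 149264767 to 149288153, plus strand). It had 433, 499.9, 478 and 502 CPM in E-Mac, against 517, 536, 543 and 532 CPM in Mac, and the groups did not overlap. The difference was small and missed the threshold (-0.15 ± 0.07, adjusted p = 0.0708). It passed without E-Mac 4 (-0.17, adjusted p = 0.0447), without E-Mac 2 and 4 (-0.22, adjusted p = 0.00129) and with total counts only (-0.30, adjusted p = 0.00178), within a range of 0.00129 to 0.242 over the alternatives. The antisense gene Gm19719 covers 13.3% of the exonic bases of Alox5ap and fell (8.33 CPM in E-Mac and 24.1 CPM in Mac, -1.53). Without a stated strand setting, reads from the bases that the pair share cannot be told apart.

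Lta4h encodes leukotriene A4 hydrolase, which forms leukotriene B4, an attractant of neutrophils (chromosome 10, 93453411 to 93484875, plus strand). It had 194, 196, 197 and 209.8 CPM in E-Mac, against 389, 405, 396 and 369 CPM in Mac. Both groups were tight, with coefficients of variation of 3.64% in E-Mac and 3.92% in Mac, and lay far apart. The log2 fold change was -0.97 ± 0.06 (adjusted p = 3.28e-08), -1.11 to -0.93 over the alternatives and -0.99 without E-Mac 2 and 4. Granulocyte marker sums were lower in E-Mac as well, at 0.411 of the Mac mean, although the 18 markers did not all fall. Of these 12 fell, and Cxcr2 (439 CPM in E-Mac and 295 in Mac) and Mmp9 (1341 and 912) rose. Within E-Mac the granulocyte sums ranged from 11821 to 19076 CPM while Lta4h ranged from 194 to 209.8. The part of any granulocytes in the fall of Lta4h was not tested.

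Alox15, the mouse leukocyte-type lipoxygenase that acts at carbons 12 and 15 of arachidonate, is known from resident peritoneal macrophages and eosinophils (chromosome 11, 70344152 to 70352031, minus strand). It had 688, 1189, 846 and 1466 CPM in E-Mac, against 729.5, 720.5, 733 and 647 CPM in Mac. E-Mac 2, 3 and 4 lay above all Mac libraries and E-Mac 1 within their range. The rise of 0.57 ± 0.20 (adjusted p = 0.0362) rests on few libraries. It was 0.12 without E-Mac 2 and 4 (adjusted p = 0.146), and the call was also lost when E-Mac 2 was left out (0.53, adjusted p = 0.103), when E-Mac 4 was (0.37, adjusted p = 0.0853) and when any 1 of Mac 1 to 4 was (0.53 to 0.59, adjusted p = 0.0563 to 0.0717), 10 of the 18 alternatives in all. Over all alternatives adjusted p ran from 0.00134 to 0.146. Among the eosinophil markers, the receptor gene Ccr3 had 462, 829, 559 and 1101 CPM in E-Mac 1 to 4, against 187 to 219 CPM in Mac. Siglecf had 91.0, 143, 99.1 and 184 CPM in E-Mac, against 102 to 135 CPM in Mac, while the granule protein genes Prg2, Epx and Prg3 fell. Ccr3 and Siglecf were thus highest in E-Mac 2 and 4, as Alox15 was, and Prg2 was not (951, 799.7, 1214 and 1038 CPM in E-Mac 1 to 4). Their part in the Alox15 values was not tested.

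Although Alox5 and Alox15 both varied within E-Mac, their ratio per kilobase varied less. Alox15 stood at 6.93, 7.43, 7.37 and 8.20 times Alox5 in E-Mac 1 to 4, against 4.94, 4.83, 4.86 and 4.74 times in Mac 1 to 4. The groups did not overlap, with means of 7.48 ± 0.526 in E-Mac and 4.84 ± 0.0867 in Mac (SD, n = 4 each). The pair was chosen after its values had been seen, and no test is given. Alox12e, a close relative of Alox15, had 13.4, 19.5, 18.3 and 27.7 CPM in E-Mac and 14.0, 12.5, 13.1 and 10.5 CPM in Mac, a rise of 0.66 ± 0.19 (adjusted p = 0.00901). The rise of Alox12e was 0.35 without E-Mac 2 and 4, and how reads matching both genes were counted was not given in the sources used here.

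Levels of different genes were compared only per kilobase of exon. In E-Mac the order by mean RPKM was Alox15 (427 ± 142), Alox5ap (337 ± 22.6), Alox5 (56.3 ± 15.2), Lta4h (32.6 ± 1.19), Pla2g4a (11.8 ± 0.810), Ptgs1 (10.7 ± 1.43), Ptgs2 (9.47 ± 1.95), Ptger2 (4.54 ± 0.535), Ptger4 (4.53 ± 0.171) and Ptges (3.42 ± 0.362). The libraries of Alox15 and Alox5ap overlapped, as did those of Pla2g4a and Ptgs1, of Ptgs1 and Ptgs2, and of Ptger2 and Ptger4. In Mac the order was Alox5ap (375 ± 7.63), Alox15 (288 ± 16.5), Lta4h (63.9 ± 2.50), Alox5 (59.5 ± 2.60), Ptgs2 (13.2 ± 6.03), Ptgs1 (12.5 ± 1.18), Ptger4 (8.10 ± 0.985), Pla2g4a (5.29 ± 0.446), Ptger2 (3.25 ± 0.337) and Ptges (1.68 ± 0.151), all SD over 4 libraries. There only Lta4h and Alox5, and Ptgs2 and Ptgs1, overlapped with their neighbour in the order. Lipoxygenase pathway transcripts thus stood above the other 6 members in both groups. Exon lengths cover all annotated transcripts of a gene, so a gene with long unused exons is understated.

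**Figure D3:**
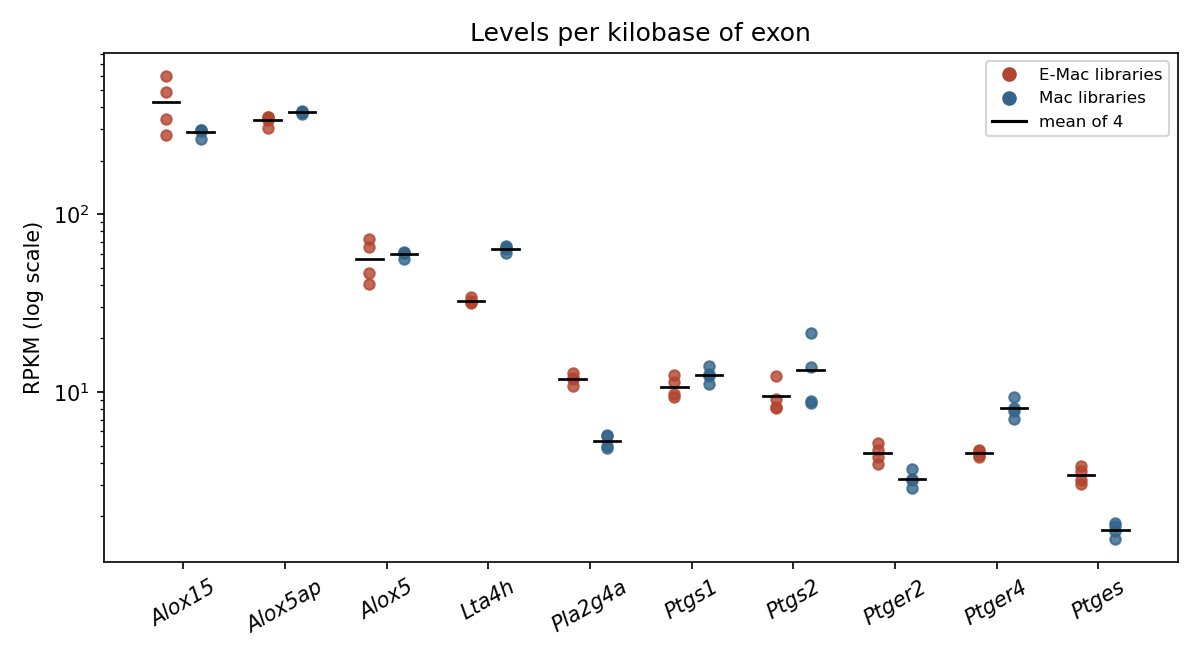
The vertical axis gives RPKM on a log scale and the horizontal axis the 10 genes in the order of their E-Mac means, with 4 E-Mac libraries left of 4 Mac libraries for each gene and a line at the mean. The lipoxygenase genes Alox15, Alox5ap and Alox5 and Lta4h lie above the rest in both groups, and Ptges is lowest at 3.42 RPKM in E-Mac and 1.68 in Mac.

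Other genes of the pathway came from 9 lists of 102 genes in the table, of which 78 were tested. Of these 33 rose, 21 fell and 24 did not pass, 69.2% called against the background of 58.3%. In the list on arachidonate release and reacylation 5 of 11 tested genes rose and 2 fell (63.6% called). Acsl4, the acyl-CoA synthetase that prefers arachidonate, had 140.4 to 151 CPM in E-Mac, against 62.6 to 66.0 CPM in Mac (1.17 ± 0.06, adjusted p = 3.34e-09). Pla2g7, which breaks down platelet-activating factor and does not release arachidonate, averaged 1512 ± 142 CPM in E-Mac and 406 ± 37.4 CPM in Mac (1.90 ± 0.09). Acsl1, a synthetase of broader preference, fell (-1.52 ± 0.07), and so did Anxa1 (-1.19 ± 0.08), which encodes annexin A1, a protein known to restrain phospholipase A2, at 425 ± 43.8 CPM in E-Mac and 973 ± 41.3 CPM in Mac.

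Among the other prostanoid synthases 4 of 7 tested genes rose and 1 fell (71.4% called, against 58.3% of all genes tested). Hpgds, which makes prostaglandin D2, had 25.0, 17.4, 23.8 and 19.3 CPM in E-Mac, against 10.6, 8.41, 10.1 and 6.72 CPM in Mac (1.25 ± 0.16, adjusted p = 2.00e-05, or 1.45 leaving out E-Mac 2 and 4). The thromboxane synthase gene Tbxas1 (0.61 ± 0.07) and Fam213b (0.92 ± 0.16), a prostaglandin F synthase gene, also rose. Of the other prostaglandin E synthase genes, Ptges2 fell (-0.46 ± 0.14, adjusted p = 0.0148), in the opposite direction to Ptges. Ptges3 rose as Ptges did, with 87.5 ± 10.8 CPM in E-Mac and 61.8 ± 4.03 CPM in Mac (0.50 ± 0.09, adjusted p = 0.000334). Prostacyclin synthase and the lipocalin-type prostaglandin D synthase had 8 counts or fewer in every library and were not tested.

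The widest change in these lists was that of the transcript of Hpgd, at 10 to 27 counts in the E-Mac libraries. The breakdown of PGE2 itself was not measured. Hpgd encodes the dehydrogenase that inactivates PGE2, and had 0.779, 1.03, 1.82 and 1.37 CPM in E-Mac, against 22.7, 25.8, 24.9 and 21.1 CPM in Mac. The groups lay far apart, with a log2 fold change of -4.22 ± 0.19 (adjusted p = 8.35e-10), 18.6-fold lower in E-Mac. Its value stayed between -4.46 and -4.05 over the alternatives. Abcc4, which exports prostanoids, fell (-0.36 ± 0.09, adjusted p = 0.00477, or -0.21 leaving out E-Mac 2 and 4), while Ptgr1 (-0.14) and Ptgr2 (0.0071), which act on the products of Hpgd, did not pass.

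The leukotriene receptors did not move as 1 group. Ltb4r1, the high-affinity leukotriene B4 receptor gene, had 91.6, 110.4, 101 and 122 CPM in E-Mac, against 157, 149, 159 and 158 CPM in Mac (-0.55 ± 0.08, adjusted p = 7.51e-05, or -0.69 leaving out E-Mac 2 and 4). Cysltr1, a receptor for the cysteinyl leukotrienes, had 76.7, 55.6, 66.9 and 45.8 CPM in E-Mac, against 28.9, 28.6, 30.8 and 34.7 CPM in Mac (0.99 ± 0.14, adjusted p = 5.45e-05, or 1.23 leaving out E-Mac 2 and 4). The list held 4 rises and 1 fall among 7 tested genes (71.4% called, against 58.3% of all genes tested). The chemerin receptor gene Cmklr1 averaged 146 ± 27.3 CPM in E-Mac and 18.4 ± 0.914 CPM in Mac (2.99 ± 0.13), and Fpr2, a receptor of formyl peptides and annexin A1, 271 ± 40.8 CPM in E-Mac and 113 ± 4.45 CPM in Mac (1.26 ± 0.10).

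Of the other leukotriene and epoxide enzymes 3 of 7 tested genes rose and 2 fell (71.4% called, against 58.3% of all genes tested). Mgst2, a microsomal glutathione transferase that can form leukotriene C4, fell to 11.8 ± 1.93 CPM in E-Mac, against 35.3 ± 5.61 CPM in Mac (-1.58 ± 0.14, adjusted p = 5.97e-07). Its relative Mgst3 fell (-0.87 ± 0.24), and Dpep3, a relative of the dipeptidase that converts leukotriene D4, rose at low levels (2.62 ± 0.357 CPM in E-Mac and 1.25 ± 0.278 CPM in Mac, log2 fold change 1.07 ± 0.26). Dpep2 rose as well, with 6.17 CPM in E-Mac and 3.73 CPM in Mac (0.72 ± 0.20, adjusted p = 0.00820). So did Ggt5, with 42.1 and 30.6 CPM (0.46 ± 0.14, adjusted p = 0.0142), although its groups overlapped.

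The cAMP machinery acts below EP2 and EP4, and of its 21 tested genes 7 rose and 7 fell. That is 66.7% called, against 58.3% of all genes tested. These are transcript levels, and signalling itself was not measured. Prkaca, the catalytic subunit of protein kinase A, rose (0.66 ± 0.07, adjusted p = 2.05e-06), as did the cAMP phosphodiesterase gene Pde8a (0.96 ± 0.09). Creb1, the cAMP-responsive transcription factor, fell to 79.2 ± 3.45 CPM in E-Mac, against 127 ± 6.30 CPM in Mac (-0.69 ± 0.06, adjusted p = 1.07e-06). Gnas, which encodes the G protein that couples both receptors to adenylyl cyclase, did not pass (-0.021, adjusted p = 0.895).

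Of 17 tested genes known to respond to PGE2 or cAMP, 9 rose (52.9%) and 5 fell (29.4%). That is 82.4% called, against 58.3% of all genes tested (29.5% higher and 28.8% lower). Vegfa, the angiogenic factor, had 165 to 213 CPM in E-Mac, against 31.4 to 39.7 CPM in Mac (2.44 ± 0.10), Il1rn, the interleukin-1 antagonist, rose (2.57 ± 0.08) and the co-regulator gene Cited2 fell (-1.27 ± 0.08, the largest adjusted p of the 3 being 1.92e-08). Those that fell were, with Cited2, the orphan receptor gene Nr4a1 (-2.75), the kinase gene Sik1 (-2.29), the phosphatase gene Dusp1 (-1.99) and the clock gene Per1 (-1.88). Those that rose included Crem (1.21), Nr4a3 (2.57) and the matricellular gene Thbs1 (3.52), which reached 7637 ± 966 CPM in E-Mac, against 667 ± 203 CPM in Mac. Apart from Cited2, the genes of these last sentences were picked with their values in view. Nr4a1, like Ptgs2, was highest in Mac 2 among the Mac libraries, at 434 CPM against 251, 326 and 248 CPM in Mac 1, 3 and 4.

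**Figure D4:**
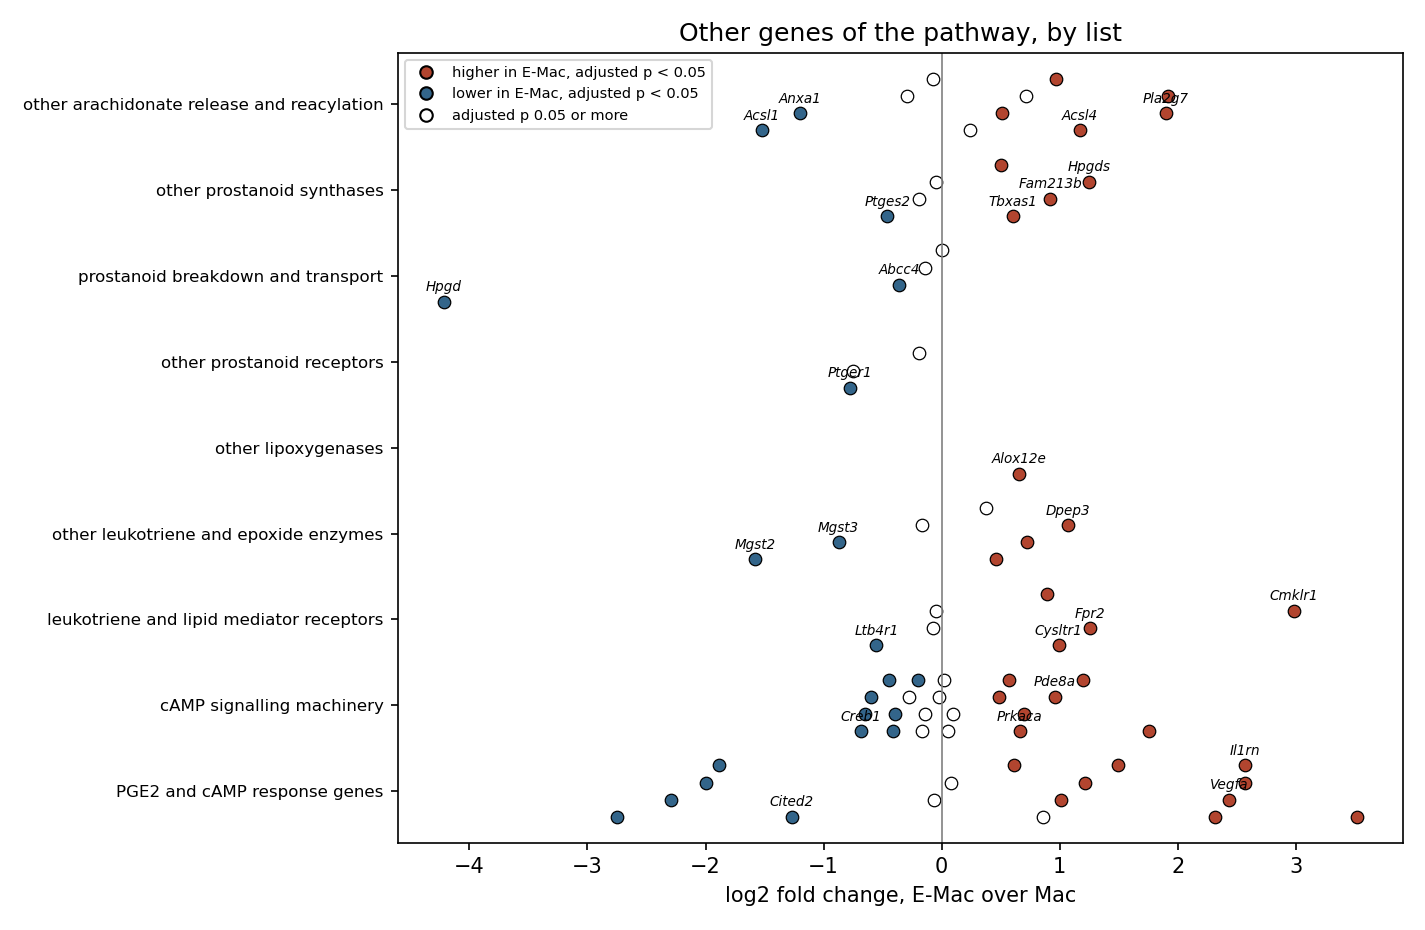
Each point is 1 tested gene of 9 lists, placed by its E-Mac over Mac log2 fold change, with filled points past an adjusted p of 0.05 and vertical spread only to keep points apart. Hpgd lies farthest to the left at -4.22, and rises and falls stand side by side in most lists.

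Scaling and the choice of libraries touched some members and not others. With TMM factors 4 members rose and 2 fell, where 3954 of all genes tested rose and 3860 fell. Scaled by total counts only, 3 members rose and 4 fell, where 22.3% of all genes tested rose (2996) and 37.4% fell (5018), 59.8% in all. Without E-Mac 2 and 4, 3 members rose and 4 fell, where 30.8% of genes rose and 29.3% fell, 60.1% in all. At an adjusted p under 0.01, 5 members were called, against 46.0% of all genes.

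**Figure D5:**
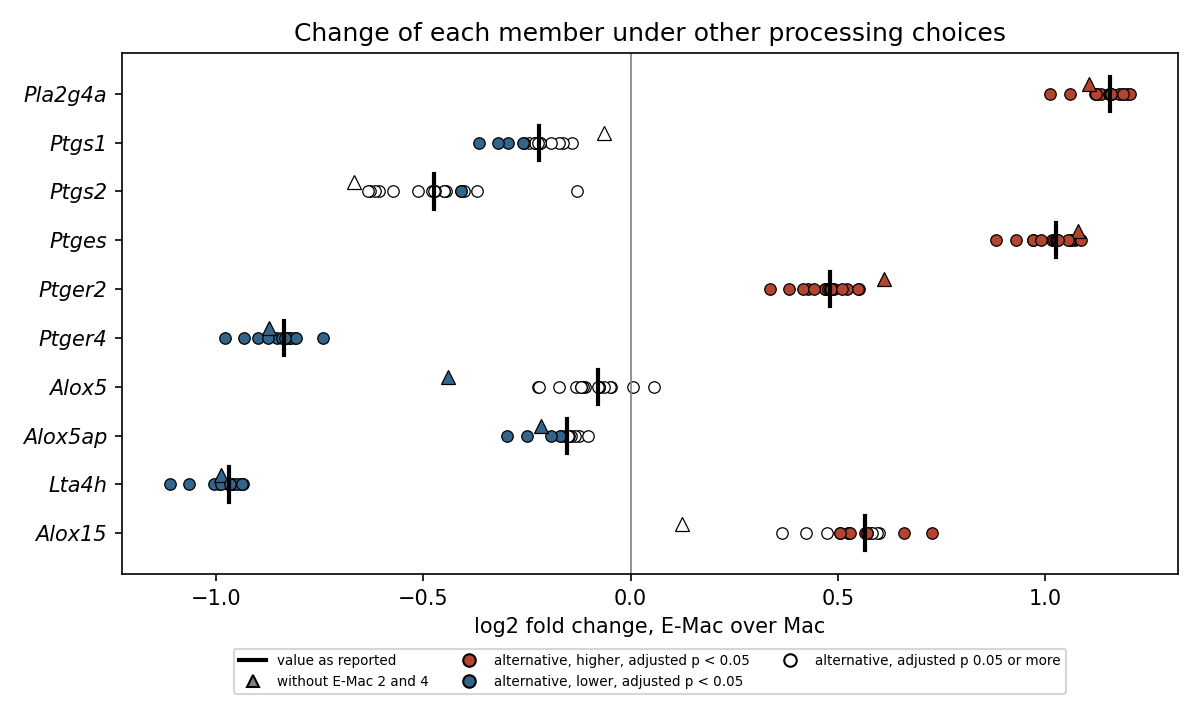
Each point is the log2 fold change of 1 member, E-Mac over Mac, under 1 of 18 alternatives, filled where the adjusted p was under 0.05; the vertical bar is the value as reported and the triangle the fit without E-Mac 2 and 4. Pla2g4a, Ptges, Ptger2, Ptger4 and Lta4h stay filled on 1 side of 0, Alox15 moves to 0.12 at its triangle and Alox5 to -0.44.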

How the data were processed

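The authors deposited raw counts (reads assigned to each gene symbol) in 8 columns, 1 for each library of polyA RNA. Tools named in the submitters' processing notes are HISAT2, featureCounts (Subread), bcl2fastq and DESeq2, with mm10 as build. Versions, annotation release, strand use and the handling of multi-mapped reads were not given in the sources used here. Left out were 26 of the 53673 names, which look like dates, and 37 mitochondrial genes carried 0 counts.

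The tests used edgeR 4.0.16 (R 4.3.3) with TMM scaling, genes kept by filterByExpr at a minimum count of 10 and a minimum total of 15, and a robust quasi-likelihood model with group as its only term. P-values were adjusted by Benjamini-Hochberg over the 13412 genes kept, and the script was tested on simulated data. Standard errors are the size of the log2 fold change over the root of F. CPM use the TMM-scaled total of the kept genes, and RPKM divide CPM by the exon length in kilobases (GENCODE M21, mm10). Profiles were compared on log2(CPM + 1), and marker sums with an exact two-sided permutation test. Libraries of 1 group differed beyond sampling noise in every pair (lowest chi-square per degree of freedom 4.85). Promoters come from RefSeq (GRCm38.p6) and gene positions from GENCODE M21.

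The members, lists and tests were chosen with earlier results of these data known. All 10 members are named. From each other list, up to 3 called genes with the smallest adjusted p are named, any 3 or fewer called against most of their list, and the 3 profiles nearest to each of Ptgs2, Ptges, Alox5 and Ptger4, and any gene outside these rules is there for its values or as background to a member. Alternatives were RLE or upper-quartile factors, total counts only, no filter, a floor of 10 CPM in 4 libraries, limma-voom (limma 3.58.1), DESeq2 1.42.0, no robust option, the replicate number as a block, leaving out each library in turn or E-Mac 2 and 4 together, and an adjusted p of 0.01.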

Additional observations from a re-analysis of the deposited data

Results flagged for a closer look

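In 112 groups of 4 values looked at, 4 held a library far from the other 3 (a gap above Dixon's critical share of the group's range), and chance gives about 1 in 20. Alox15 had 647 CPM in Mac 4, against 720.5 to 733 in the other Mac libraries. Anxa1 had 490.1 CPM in E-Mac 2, against 396 to 409.8 in the other E-Mac libraries. Ptger1 had 6.47 CPM in Mac 4, against 8.54 to 8.95 in the other Mac libraries. Dstn had 357 CPM in Mac 2, against 333 to 336 in the other Mac libraries.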

How the results depend on the processing

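Of the 10 members, Pla2g4a, Ptges, Ptger2, Ptger4 and Lta4h kept call and direction in all 18 alternatives, and 9 kept their direction. Alox5 turned, with no call, to 0.056 without E-Mac 1 and 0.0052 without E-Mac 3, within a range of -0.22 to 0.056 when 1 library was left out; the cause was not tested. The 25 genes of the other lists named by rule kept call and direction in every alternative fit that tested them, which was not run for the genes picked with their values in view. Leaving out 1 library gave 7233 to 7986 genes called, 5 to 7 members and 50 to 57 other pathway genes (52.9 to 58.1% of all genes), against 7814, 6 and 54. Higher calls numbered 3314 and lower calls 4610 with upper-quartile factors, and 2996 and 5018 with total counts only. Total counts only also gave a macrophage marker sum of 0.843 times the Mac mean in E-Mac, past the exact permutation test (p = 0.0286), and moved 5 levels beyond 1 SD: Ptger4 and Lta4h to 4.30 and 31.0 RPKM in E-Mac, and Alox5, Alox5ap and Lta4h to 62.5, 393 and 67.0 RPKM in Mac. Over all genes tested, same-numbered libraries did not deviate together (correlations of -0.11 to 0.03). Such a correlation cannot exclude a pairing, and the labels state none. With the replicate number as a block 7458 genes, 7 members and 52 other pathway genes were called. Ptgs2 then passed (-0.41, adjusted p = 0.0393, 0.0393 to 0.612 over the alternatives). Replicate 2 was its highest library in both groups, at 56.4 CPM in E-Mac and 98.6 CPM in Mac. At a threshold of 0.01 the calls of Alox15 and Ptges2 were lost and 5 members and 44 other pathway genes were called. With 4 libraries a group, Ptgs2 could not be told from a fall of more than 2-fold or a small rise.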

Other observations

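Of the 102 other pathway genes counted, 24 were too low to test, and some are textbook macrophage or stromal genes of the pathway. Ltc4s, the main leukotriene C4 synthase gene, had 0 to 3 counts in the E-Mac libraries and 3 to 5 counts in the Mac libraries. The prostaglandin transporter gene Slco2a1 had 0.624, 2.06, 0.00 and 3.38 CPM in E-Mac 1 to 4, against 0.00 to 0.247 CPM in Mac, and its higher values lay in E-Mac 2 and 4, where stromal markers summed to 475 and 517 CPM. The prostaglandin F receptor gene Ptgfr and the 12R-lipoxygenase gene Alox12b had 0 counts in all 8 libraries.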
